A study of Mus musculus with 6 samples.

Results

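The 9 genes described here encode receptors for catecholamines, acetylcholine, adenosine, angiotensin II and endothelin, together with the ligand endothelin-1. They are Adrb1, Adra1a, Adra1b, Chrm2, Adora1, Agtr1a, Edn1, Ednra and Ednrb, taken by name as 9 rows of the 43629 Ensembl genes counted in each library. RNA-Seq was performed on primary ventricular cardiomyocytes of CD-1 mouse embryos at embryonic day 13.5, kept in culture for 48 h and then transfected with 12 nM negative siRNA (a commercial control siRNA, n = 3) or with 12 nM of a pool of 4 siRNAs against DNMT1 (n = 3). All cultures were collected 72 h after transfection and sorted magnetically with an antibody against VCAM1. Ventricles were pooled by litter before culture, and the labels do not state whether the 3 cultures of a treatment came from separate litters, so that p-values measure the spread between these cultures. The groups follow the sample titles, although a label of the DNMT1 siRNA cultures mentions DNMT3a. Dnmt1, the targeted gene, had 2760 to 3447 normalized counts with negative siRNA and 665 to 785 with DNMT1 siRNA, a log2 fold change of -2.03, while Dnmt3a was at 4867 to 5780 and 6362 to 6510 (0.24, edgeR adjusted p = 0.092) and Dnmt3b had 0.21 (adjusted p = 0.44).

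These receptors belong to the large family with 7 membrane-spanning helices that signals through heterotrimeric G proteins. In the heart, the beta1-adrenergic receptor couples to Gs and raises cyclic AMP, which speeds and strengthens the beat. The M2 muscarinic and A1 adenosine receptors couple to Gi and oppose it, slowing the beat partly through potassium channels opened by G protein beta-gamma subunits. The alpha1-adrenergic, type 1 angiotensin and endothelin receptors couple mainly to Gq and phospholipase C, and are known for their part in cardiomyocyte growth.

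Counts on genes ranged from 27852412 to 35896018 with negative siRNA and from 13739561 to 16186310 with DNMT1 siRNA. The share of uniquely mapped reads outside annotated genes was 14.6 to 17.5% with negative siRNA and 24.4 to 32.0% with DNMT1 siRNA (exact permutation test, two-sided, p = 0.1, the smallest p that 3 against 3 allow). The cells were labelled cardiomyocytes, and all 10 cardiomyocyte markers passed the filter. Their summed level was 2117 to 2745 CPM (counts scaled to effective library size) with negative siRNA, while 10 fibroblast and epicardial markers summed to 36273 to 55876 CPM in the same libraries, most of it from the collagen genes Col1a1, Col1a2 and Col3a1. Negative siRNA replicate 2 stood apart from replicates 1 and 3 in several of the genes below, and values without it are given where it decides them.

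With DNMT1 siRNA, 4 of the 8 members that passed the filter on low counts were up-regulated: Chrm2 by 2.91-fold, Adora1 by 2.49-fold, Adra1b by 2.41-fold and Edn1 by 2.15-fold. The limits were a false discovery rate (FDR) below 0.05 and a fold change above 1.5 in edgeR's quasi-likelihood test. Of all 15470 tested genes, 4.26% were up-regulated at these limits and 2.23% down-regulated, 6.49% in all. In the same test no member was down-regulated, 0 had a lower level at an unadjusted p under 0.05, and DESeq2 called 0 of them lower. Agtr1a was 1.89-fold higher and just missed the FDR limit. Adrb1, Ednra and Ednrb did not pass, and Adra1a had too few reads to test. The median log2 fold change of the 8 tested members was 1.01, against -0.0049 over all tested genes. In 5 of the 8, every DNMT1 siRNA culture lay above every negative siRNA culture, which was the case for 18.3% of all tested genes. Each of the 8 had at least 41 reads in every culture, so that none passed the filter through 1 treatment alone.

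**Figure D1:**
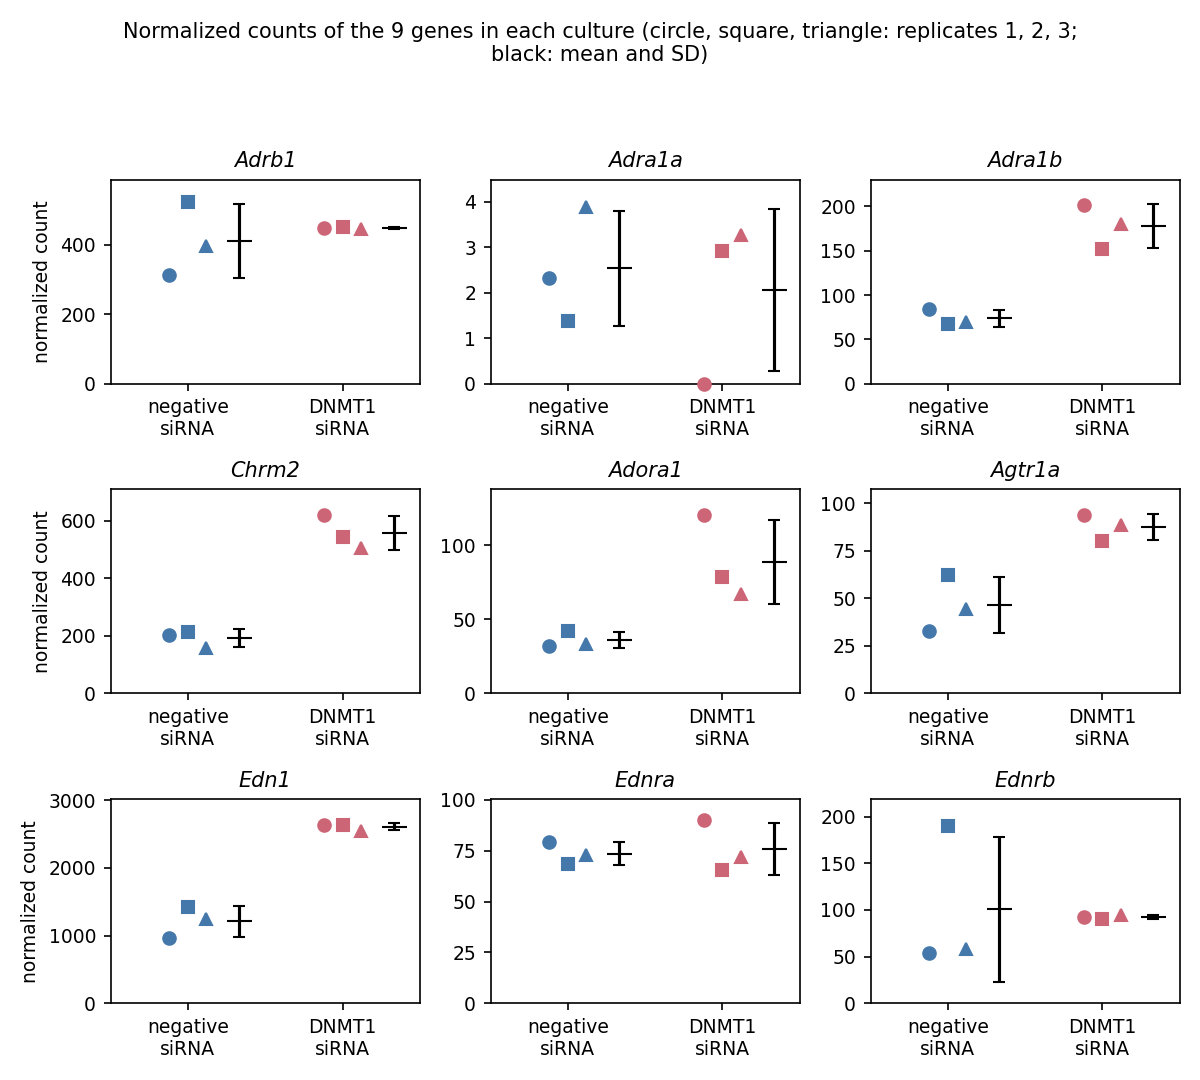
Normalized counts (reads scaled to equal effective library sizes, linear axes from 0) of the 9 genes in the 3 negative siRNA cultures (blue) and the 3 DNMT1 siRNA cultures (red). Circles, squares and triangles are replicates 1, 2 and 3, and black marks give the mean and SD. Chrm2, Adora1, Adra1b, Edn1 and Agtr1a show no overlap between treatments, and the square of negative siRNA replicate 2 is the highest point for Ednrb at 190.3.

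Chrm2 (ENSMUSG00000045613, chromosome 6 of GRCm38, 36388084 to 36528414, plus strand) encodes the M2 muscarinic receptor, through which the vagus nerve slows the heart. Its normalized counts were 204, 214 and 156 in negative siRNA replicates 1 to 3 and 621, 542 and 507 in DNMT1 siRNA replicates 1 to 3. The lowest DNMT1 siRNA culture was above the highest negative siRNA culture. This gave a log2 fold change of 1.54 (SE 0.14, edgeR adjusted p = 0.00096), the largest of the 8 tested members. Chrm2 kept its call in each of the 13 other settings tried, with log2 fold changes between 1.42 and 1.62. A total of 142 of its 6053 exonic bases overlap the non-coding gene 9330158H04Rik on the opposite strand, which had 13 to 33 reads per library against 201 to 463 for Chrm2. That neighbour was also higher, at 13.5 ± 7.53 and 45.5 ± 1.19 normalized counts (log2 fold change 1.76, edgeR adjusted p = 0.024), and the strand setting of the counting is not given in the sources used here.

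Adora1 (ENSMUSG00000042429, chromosome 1, 134199223 to 134235431, minus strand) encodes the A1 adenosine receptor, the other Gi-coupled receptor among the members. It had 32.1, 42.1 and 33.4 normalized counts with negative siRNA and 121, 78.7 and 67.0 with DNMT1 siRNA. DNMT1 siRNA replicate 1 was the highest, and the treatments did not overlap. Adora1 rose by 1.31 on the log2 scale (SE 0.27, edgeR adjusted p = 0.019). Its reads were 55, 61 and 43 in the negative siRNA libraries and 90, 54 and 41 in the smaller DNMT1 siRNA libraries. The call was lost without DNMT1 siRNA replicate 1 (log2 fold change 1.00, adjusted p = 0.080) and without DNMT1 siRNA replicate 2 (1.39, adjusted p = 0.068). A stretch of 1162 of its 5785 exonic bases is shared with Mybph on the opposite strand, which had 0 to 2 reads in every library. The strand setting of the counting is not given. If strand was not used, reads in the shared bases would fit both genes and be counted for neither, which was not tested.

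Adrb1 (ENSMUSG00000035283, chromosome 19, 56722199 to 56733113, plus strand) encodes the beta1-adrenergic receptor, the main receptor for noradrenaline in the heart. Its normalized counts were 311, 523 and 397 with negative siRNA and 448, 452 and 445 with DNMT1 siRNA. The DNMT1 siRNA cultures fell within the range of the negative siRNA cultures, whose SD was 106 against 3.48. The log2 fold change was 0.13 (95% interval -0.27 to 0.53, edgeR adjusted p = 0.66), so that a 1.5-fold change in either direction lay outside the interval. Without negative siRNA replicate 2, the culture with 523, it was 0.34 (adjusted p = 0.083), and without replicate 1 it was -0.037.

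The level of Adrb1 relative to Chrm2 was taken within each library, where library scaling has no part. Per kilobase of exon, Adrb1 had 2.73, 4.38 and 4.54 times the level of Chrm2 in the negative siRNA cultures and 1.29, 1.49 and 1.57 times in the DNMT1 siRNA cultures. The ratio was lower in all 3 DNMT1 siRNA cultures than in any negative siRNA culture (exact permutation test, two-sided, p = 0.1, the smallest possible here). The ratio of Adora1 to Chrm2 overlapped between treatments, with medians of 0.206 and 0.152 (exact permutation test, p = 0.2). These pairs were chosen after the values of the members were known.

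Adra1b (ENSMUSG00000050541, chromosome 11, 43774606 to 43901210, minus strand) encodes the alpha1B-adrenergic receptor, a Gq-coupled receptor for noradrenaline and adrenaline. It had 84.6, 66.9 and 69.2 normalized counts with negative siRNA and 201, 151 and 179.8 with DNMT1 siRNA. Every DNMT1 siRNA culture lay well above the highest negative siRNA culture. Adra1b rose by 1.27 on the log2 scale (SE 0.17, edgeR adjusted p = 0.0036), and the call held in all 13 other settings, between 1.14 and 1.38. Adra1a (ENSMUSG00000045875, chromosome 14, 66635251 to 66771168, plus strand), which encodes the related alpha1A receptor, had 4, 2 and 5 reads with negative siRNA and 0, 2 and 2 with DNMT1 siRNA, and was not tested. Its exons span 8728 bases, more than those of any other member, and its level per exon length was at most 0.0205 RPKM (reads per kilobase of exon, scaled by effective library size) in any library of either treatment.

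Agtr1a (ENSMUSG00000049115, chromosome 13, 30336441 to 30382867, plus strand) encodes the main type 1 angiotensin II receptor of the mouse. Its normalized counts were 32.7, 62.1 and 44.3 with negative siRNA and 93.9, 80.1 and 88.3 with DNMT1 siRNA. The treatments did not overlap, and negative siRNA replicate 2 was the closest to the DNMT1 siRNA cultures. The log2 fold change was 0.92 (SE 0.26, 95% interval 0.33 to 1.51) with an edgeR adjusted p of 0.052. It passed both limits in 4 of 13 other settings, which were DESeq2 (adjusted p = 0.034), no filter on low counts (0.0066), a minimum of 10 reads in every culture (0.047) and the fit without negative siRNA replicate 2 (log2 fold change 1.19, adjusted p = 0.0074). The adjusted p over the 13 settings ranged from 0.0066 to 0.17.

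Edn1 (ENSMUSG00000021367, chromosome 13, 42301476 to 42307990, plus strand) encodes the precursor of endothelin-1, a small secreted peptide that constricts vessels and acts on cardiomyocytes as a growth signal. It was the member with the most reads, 969, 1423 and 1245 normalized counts with negative siRNA and 2639, 2632 and 2552 with DNMT1 siRNA. The 3 DNMT1 siRNA cultures lay within a narrow band far above the highest negative siRNA culture. The log2 fold change was 1.11 (SE 0.13, edgeR adjusted p = 0.0022), and it passed the limits in each of 13 other settings, between 0.97 and 1.24. Of the 2139 exonic bases of Edn1, 35 overlap Gm47118 on the opposite strand.

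Neither receptor for endothelin passed the limits. Ednra (ENSMUSG00000031616, chromosome 8, 77663031 to 77724464, minus strand), which encodes the endothelin A receptor, had 79.4, 68.3 and 73.1 normalized counts with negative siRNA and 89.9, 65.5 and 71.9 with DNMT1 siRNA. The treatments overlapped, and the log2 fold change was 0.045 (95% interval -0.38 to 0.47, edgeR adjusted p = 0.90). Its sign turned without negative siRNA replicate 2 (-0.0060) and without DNMT1 siRNA replicate 1 (-0.12). A total of 91 of its 5476 exonic bases overlap 4933431K23Rik on the opposite strand, with 0 to 8 reads per library.

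Ednrb (ENSMUSG00000022122, chromosome 14, 103814625 to 103844402, minus strand) encodes the endothelin B receptor, which in vessels is best known from endothelium and in the embryo from neural crest. It had 53.7, 190.3 and 57.6 normalized counts with negative siRNA and 92.6, 90.3 and 94.8 with DNMT1 siRNA. The DNMT1 siRNA cultures were nearly identical and lay between negative siRNA replicate 2 and the other two. The log2 fold change was -0.12 with a wide interval of -1.19 to 0.95 (edgeR adjusted p = 0.89). Without negative siRNA replicate 2 the direction turned, to a log2 fold change of 0.74 (adjusted p = 0.022) past both limits. That culture also had the highest summed markers of smooth muscle and pericytes (8161 CPM against 5949 and 5495) and of fibroblasts and epicardium (55876 against 36273 and 38457) among the negative siRNA cultures. The same held for the neural crest, glial and neuronal list (9.39 against 4.30 and 4.87), the endothelial list (292 against 245 and 284) and the cardiomyocyte list (2745 against 2117 and 2343). It did not hold for the macrophage list, where replicate 3 was highest (16.6, 44.6 and 45.7 in replicates 1 to 3). The part of these cell types in the level of Ednrb was not tested.

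**Figure D2:**
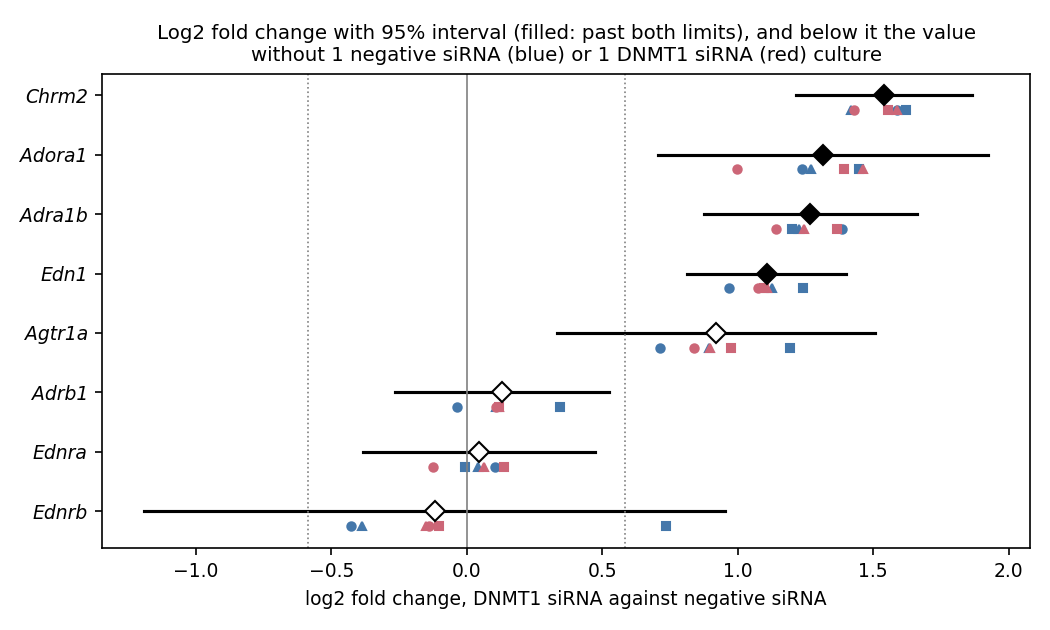
Log2 fold change of DNMT1 siRNA against negative siRNA for the 8 tested members (diamonds, filled where past both limits) with the 95% interval as a line, and below each the value after leaving out 1 negative siRNA culture (blue) or 1 DNMT1 siRNA culture (red), with circles, squares and triangles for replicates 1, 2 and 3. Dotted lines mark a fold change of 1.5. The values of Edn1, Adra1b, Chrm2, Adora1 and Agtr1a stay to the right of the right-hand dotted line in every fit. The interval of Agtr1a reaches 0.33, left of that line. Ednrb moves from -0.12 to 0.74 without negative siRNA replicate 2.

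Levels were compared between genes per kilobase of exon. With negative siRNA, Edn1 stood highest at 26.1 ± 4.91 RPKM (SD, n = 3), followed by Adrb1 at 5.58 ± 1.45 and Chrm2 at 1.45 ± 0.233. Edn1, Adrb1 and Chrm2 were separate from each other in all 3 cultures. Below them Ednrb (1.08 ± 0.839), Adra1b (1.00 ± 0.131), Agtr1a (0.765 ± 0.244) and Ednra (0.618 ± 0.0468) followed, and the ranges of neighbours in this order overlapped from Chrm2 down to Ednra. Adora1 was lower at 0.285 ± 0.0430.

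With DNMT1 siRNA the order began in the same way, with Edn1 at 56.1 ± 1.04 RPKM, Adrb1 at 6.09 ± 0.0473 and Chrm2 at 4.23 ± 0.445. The next were Adra1b (2.41 ± 0.339), Agtr1a (1.44 ± 0.114) and Ednrb (0.998 ± 0.0242), none of which overlapped with its neighbours. Adora1 (0.706 ± 0.225) and Ednra (0.637 ± 0.106) could not be ordered, since their ranges overlapped. Adra1a stayed last in both treatments, at 0.0134 ± 0.00668 and 0.0109 ± 0.00945 RPKM.

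**Figure D3:**
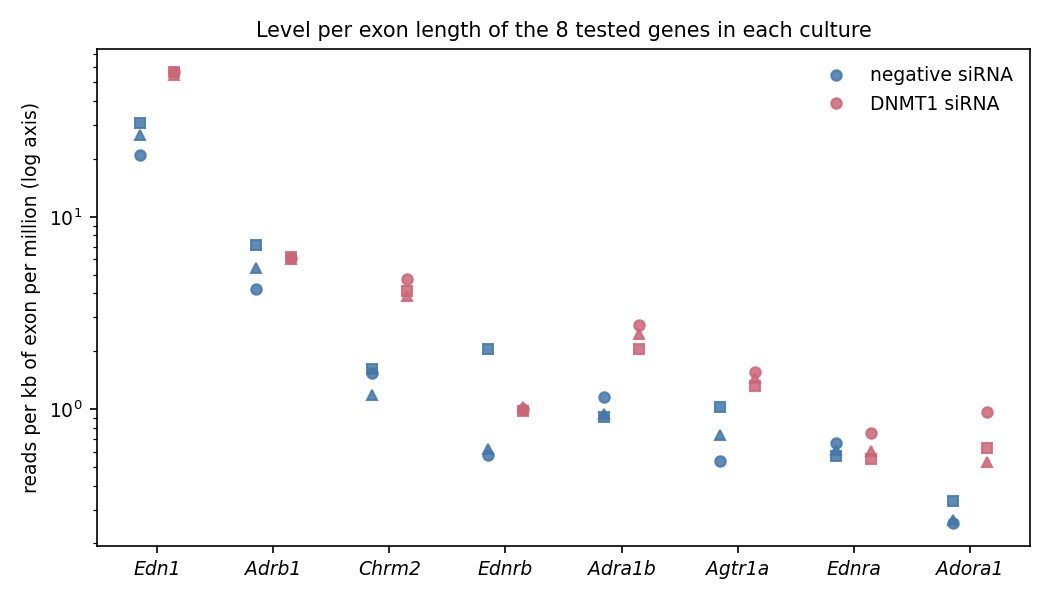
Level of the 8 tested members in each culture, as RPKM on a log axis, ordered by the mean with negative siRNA (blue: negative siRNA, red: DNMT1 siRNA, symbols as for replicates 1 to 3). Edn1 and Adrb1 lead in both treatments, and Chrm2 comes within reach of Adrb1 with DNMT1 siRNA, at 4.23 against 6.09.

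Since DNMT1 copies methylation of CG dinucleotides onto newly made DNA, the 250 bases before the start site are shown for the 4 up-regulated members and, for contrast, for Adrb1. Sequences are from RefSeq (GRCm38.p6), and CG dinucleotides are in capitals. Entries existed for 7 of the 9 members, and those without were Adra1a and Agtr1a. Methylation of these sequences was not measured here.
Chrm2 (chr6:36387834-36388083, plus strand): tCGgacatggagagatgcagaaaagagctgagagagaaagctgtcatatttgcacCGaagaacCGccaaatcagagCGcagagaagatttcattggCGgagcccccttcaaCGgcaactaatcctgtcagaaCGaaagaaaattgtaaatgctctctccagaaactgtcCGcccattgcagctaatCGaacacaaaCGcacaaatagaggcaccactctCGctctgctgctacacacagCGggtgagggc
Adora1 (chr1:134235458-134235707, minus strand): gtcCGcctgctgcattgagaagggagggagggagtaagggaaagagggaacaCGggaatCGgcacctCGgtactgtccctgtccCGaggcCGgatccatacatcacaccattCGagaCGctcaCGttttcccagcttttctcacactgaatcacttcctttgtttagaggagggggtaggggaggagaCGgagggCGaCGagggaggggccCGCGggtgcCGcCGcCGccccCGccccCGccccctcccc
Adra1b (chr11:43901238-43901487, minus strand): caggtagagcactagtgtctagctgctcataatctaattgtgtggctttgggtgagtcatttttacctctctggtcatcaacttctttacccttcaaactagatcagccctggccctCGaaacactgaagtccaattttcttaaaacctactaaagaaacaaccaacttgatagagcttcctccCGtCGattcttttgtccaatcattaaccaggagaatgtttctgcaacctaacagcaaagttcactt
Edn1 (chr13:42301226-42301475, plus strand): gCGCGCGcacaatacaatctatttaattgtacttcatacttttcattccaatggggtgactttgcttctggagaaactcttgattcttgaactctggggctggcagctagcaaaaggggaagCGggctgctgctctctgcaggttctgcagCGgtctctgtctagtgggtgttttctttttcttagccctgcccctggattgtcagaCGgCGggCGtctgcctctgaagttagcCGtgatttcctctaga
Adrb1 (chr19:56721867-56722116, plus strand): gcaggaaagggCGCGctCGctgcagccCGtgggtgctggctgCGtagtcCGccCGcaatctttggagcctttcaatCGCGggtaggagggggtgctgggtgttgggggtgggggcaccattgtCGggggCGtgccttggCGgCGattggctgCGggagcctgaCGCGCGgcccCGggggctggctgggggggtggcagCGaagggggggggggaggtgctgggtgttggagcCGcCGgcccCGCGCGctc

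The number of CG dinucleotides in these windows was 12 for Chrm2, 19 for Adora1, 3 for Adra1b, 9 for Edn1 and 24 for Adrb1. The median over 32841 RefSeq promoters of the same length was 6, with quartiles of 2 and 16. The up-regulated members therefore lay on both sides of the median, and Adrb1, which was not called, had more CG than 88.0% of promoters. Adra1b and Adora1 each had a second annotated start, at which the windows held 22 and 18 CG, so that the value of Adra1b depends on the start site. Ednra had 6 and Ednrb had 11. The letters GGGCGG, known as a binding site of SP1, were found on either strand in the windows shown of Chrm2 (1), Adora1 (3) and Adrb1 (1), and in 32.7% of all promoters. The letters TGANTCA, which AP-1 is known to bind, occurred in those of Adora1 and Adra1b (1 each) and in 6.75% of all promoters. Neither TATAAA (12.4% of all promoters) nor AGATAA (9.99%) was found in any member's window.

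Of other receptors of the same families, a smaller share than of the members passed the filter on low counts. Of 16 such genes, 7 passed the filter, and in edgeR's test 1 fell and none rose past the limits. Over all tested genes, 2.23% fell and 4.26% rose past them. Of the 7, 1 was higher at an unadjusted p under 0.05, and DESeq2 called 0 higher. The one that fell was Adora2b, which encodes the A2B adenosine receptor and couples to Gs, with 111, 148 and 143 normalized counts under negative siRNA and 55.0, 65.5 and 58.8 under DNMT1 siRNA (log2 fold change -1.16, SE 0.18, edgeR adjusted p = 0.0068). Adora1 thus rose and Adora2b fell, with no overlap between treatments in either. Adrb3, the beta3-adrenergic receptor, was at 7.27 ± 2.70 and 18.8 ± 4.05 normalized counts (log2 fold change 1.38, adjusted p = 0.052). Chrm3, the M3 muscarinic receptor, had a log2 fold change of 0.60 (edgeR adjusted p = 0.41). Agtr2, the type 2 angiotensin receptor, did not pass the filter and is named after its values were seen, with 30, 7 and 20 reads under negative siRNA and 1, 2 and 0 under DNMT1 siRNA.

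Of 28 genes for the making, processing and removal of the ligands, 18 were tested, with 5 up-regulated and 1 down-regulated. The shares over all tested genes were 4.26% and 2.23%. Ece1, which encodes the protease that releases endothelin-1 from its precursor, rose from 6692 ± 1534 to 10620 ± 121 normalized counts (log2 fold change 0.67, edgeR adjusted p = 0.029). Ddc and Dbh, both enzymes of catecholamine synthesis, had log2 fold changes of 0.76 (adjusted p = 0.0083) and 1.47 (adjusted p = 0.028), while Th, the first enzyme of that route, had 0 or 1 read in every library. Dbh rose from a low level, 11.8 ± 2.18 to 32.5 ± 10.5 normalized counts.

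Nt5e, the ectoenzyme that makes adenosine from AMP, rose from 724 ± 98.0 to 1449 ± 108 normalized counts (log2 fold change 1.00, edgeR adjusted p = 0.0020). Ada, which removes adenosine by deamination, fell from 199.5 ± 73.1 to 98.2 ± 10.5 (log2 fold change -1.02, adjusted p = 0.047). Bche, a cholinesterase, rose by 0.69 on the log2 scale (adjusted p = 0.040). Ace, the angiotensin-converting enzyme, had -0.054 (95% interval -0.46 to 0.35), and Agt, the precursor of angiotensin, had 12.0 to 13.5 normalized counts as group means. The calls of Ece1, Bche and Ada were each lost without any single DNMT1 siRNA culture (adjusted p between 0.11 and 0.16), as was that of Dbh (0.055 to 0.14). Ece1 (0.49) and Bche (0.51) also fell short of the fold limit without negative siRNA replicate 2, Dbh lost its call without negative siRNA replicate 1, Bche without replicate 3, and Ada without replicate 1 or 3.

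The G protein alpha subunits that connect these receptors to their effectors showed no call in edgeR's test. All 13 were tested, 0 were called by DESeq2, and at an unadjusted p under 0.05 there were 0 higher and 1 lower. The lower was Gnai3, a Gi subunit, with a log2 fold change of -0.24 (edgeR adjusted p = 0.049), which is under the fold limit. Gnas, the alpha subunit of Gs, had -0.23 (95% interval -0.55 to 0.096). Gnai2 had -0.036 (-0.18 to 0.11), Gnaq 0.14 (-0.049 to 0.32) and Gna11 0.076 (-0.085 to 0.24).

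Among effectors of Gs and Gi, 38 of 42 genes were tested and 1, Pde2a, had no matching identifier. Of the 38, 2 were up-regulated and 2 down-regulated, against 4.26% and 2.23% of all tested genes. The 2 up-regulated genes were Akap6, an anchoring protein that holds protein kinase A near the nuclear envelope and the sarcoplasmic reticulum, and Adcy7, an adenylyl cyclase. Akap6 rose from 960.4 ± 78.7 to 2004 ± 44.9 normalized counts (log2 fold change 1.06, edgeR adjusted p = 0.00062) and Adcy7 from 671 ± 141 to 1340 ± 99.1 (1.00, adjusted p = 0.0053). The 2 down-regulated genes were Pde1a, a calcium-dependent phosphodiesterase, from 1366 ± 296 to 495 ± 12.3 (-1.47, adjusted p = 0.0013), and Prkar2b, a regulatory subunit of protein kinase A, from 414 ± 59.3 to 194 ± 5.03 (-1.09, adjusted p = 0.0025). The cyclases best known from heart, Adcy5 and Adcy6, had log2 fold changes of 0.51 (95% interval -0.0061 to 1.04) and 0.079 (-0.11 to 0.27). Of the potassium channel subunits opened by M2 and A1 receptors, Kcnj5 had 565 ± 200.2 and 905 ± 39.5 normalized counts (0.68, adjusted p = 0.075), and Kcnj3 did not pass the filter, with 7.36 ± 2.95 and 9.66 ± 2.11.

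Among effectors of Gq, 21 of 23 genes were tested, with 2 up-regulated and 1 down-regulated, against 4.26% and 2.23% of all tested genes. Itpr2, an IP3 receptor that releases calcium from stores, had a log2 fold change of 0.68 (edgeR adjusted p = 0.0079), and Plcb1, a phospholipase C activated by Gq, one of 0.65 (adjusted p = 0.040). Prkcb, a protein kinase C, fell by 0.69 on the log2 scale (adjusted p = 0.0099). The call of Plcb1 held only without negative siRNA replicate 3 among the fits that left out 1 culture. That of Prkcb was lost without DNMT1 siRNA replicate 1 (adjusted p = 0.051) or 2 (0.059), and that of Itpr2 without DNMT1 siRNA replicate 2 (0.055) or 3 (0.051).

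Of 20 receptor kinases, arrestins, RGS proteins and receptor-binding proteins, 18 were tested and 1 was up-regulated, against 4.26% of all tested genes. The up-regulated gene was Rgs6, which is known to shorten Gi signalling behind the M2 receptor. It rose from 32.9 ± 7.77 to 66.4 ± 9.65 normalized counts (log2 fold change 1.02, edgeR adjusted p = 0.036). This call was lost without negative siRNA replicate 1 (adjusted p = 0.056) and without any single DNMT1 siRNA culture (0.092 to 0.14). Grk2 and Grk5, the main receptor kinases of the heart, had log2 fold changes of -0.080 (95% interval -0.24 to 0.085) and 0.013 (-0.20 to 0.22). The last list held 10 genes of contraction downstream of protein kinase A, and 5 of them were up-regulated. They were Ryr2 (1.60), Tnni3 (1.55), Pln (1.12), Atp2a2 (0.65) and Mybpc3 (from 3422 to 9699 normalized counts), with log2 fold changes in parentheses for the first 4. All had an edgeR adjusted p of at most 0.0082. Without DNMT1 siRNA replicate 1, Atp2a2 was at 0.58 and short of the fold limit.

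Over all 7 lists together, 125 of 152 genes were tested, 15 were up-regulated and 5 down-regulated, and the median log2 fold change was 0.096. The shares over all 15470 tested genes were 4.26% up-regulated and 2.23% down-regulated. Ryr2 is also among the 10 cardiomyocyte markers below, of which 7 were up-regulated, and Dbh is in the neural crest, glial and neuronal list. Whether the genes of contraction rose apart from the cardiomyocyte markers was not tested. Among the 8 tested members 4 were up-regulated, but as the 9 names and the lists were chosen with results of these data known, no test was made of these differences.

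**Figure D4:**
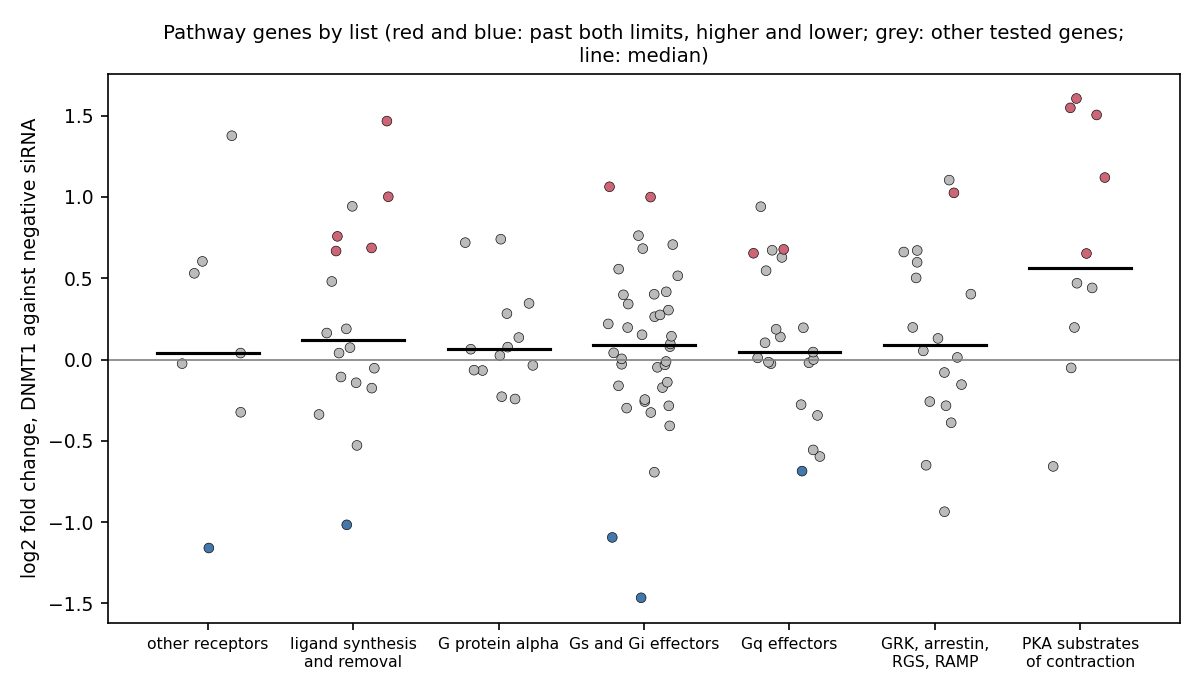
Log2 fold change (DNMT1 siRNA against negative siRNA, linear axis) of the 125 tested pathway genes in 7 lists, each point 1 gene, with red and blue for genes past both limits, grey for the others and a line at each list's median. The G protein alpha subunits have no coloured point. The list labelled PKA (protein kinase A) substrates of contraction has a median of 0.56, while the medians of the other lists lie between 0.040 and 0.12. That list holds Ryr2, which is also among the cardiomyocyte markers, whose median was 0.87.

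Levels of cell type markers moved with the treatment beside these genes. In bulk samples, more cells of a type and more RNA per cell cannot be told apart. Of 10 cardiomyocyte markers, 7 were up-regulated, and their sum rose from 2117 to 2745 CPM with negative siRNA to 4551 to 5762 CPM with DNMT1 siRNA, a ratio of means of 2.16. Single markers ranged from 1.60 on the log2 scale for Ryr2 to 0.20 for Myh7. The values of Chrm2, Adora1, Adra1b and Edn1 lay within that range, also with Myl7 (0.42), the next lowest, as its low end. Myh7 had 946, 3497 and 1267 normalized counts with negative siRNA and 2389, 2299 and 1873 with DNMT1 siRNA. Negative siRNA replicate 2 was thus its highest culture, and the Myh7 value without that culture is not given here. Adrb1, also a gene of cardiomyocytes, was at 0.13. For comparison, Tnnt2 was at 0.61, Actn2 at 1.25 and Actc1 at 1.54.

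Endothelial cells are a known source of Edn1. Of 10 endothelial markers, 9 were tested and 2 were up-regulated, Emcn (log2 fold change 1.38, edgeR adjusted p = 0.047) and Kdr (0.91, adjusted p = 0.035), and the sum was 245 to 292 CPM and 355 to 384 CPM (ratio 1.35). Without Eng, the most abundant of them, the sums overlapped (80.8 to 126 and 116 to 137 CPM, exact permutation test, p = 0.2). Pecam1 (188 and 344 normalized counts with negative and DNMT1 siRNA), Cdh5 (343 and 607), Tie1 (149.7 and 292) and Egfl7 (165 and 276) had higher means with DNMT1 siRNA but overlapped between treatments and did not pass (edgeR adjusted p 0.12 to 0.14). In each of these genes, and in the sum without Eng, only negative siRNA replicate 2 reached the DNMT1 siRNA range. That culture had 314 for Pecam1, against 135 and 114 in replicates 1 and 3 and 301 to 373 with DNMT1 siRNA. Its sum without Eng was 126 CPM, against 80.8 and 82.0. Tek had a log2 fold change of -0.35, under the fold limit, and Cldn5 was near 0 with means of 1.60 and 0.486. Of the fibroblast and epicardial markers, 3 of 10 were down-regulated, Col1a1, Col1a2 and Dcn (log2 fold changes -0.65, -0.69 and -0.64). The sum of the list was 27576 to 29441 CPM with DNMT1 siRNA (ratio 0.66), most of it from the collagen genes. The others, none called, were Col3a1 (-0.42), Lum (-0.42), Pdgfra (-0.40), Wt1 (-0.23), Postn (-0.21), Tcf21 (0.0052) and Tbx18 (0.17). Of the smooth muscle and pericyte markers 1 of 9 tested was down-regulated, Pdgfrb (log2 fold change -0.62). The sums were 5495 to 8161 and 4630 to 4826 CPM, mostly from Acta2 (-0.51) and Tagln (-0.43). Myh11 (-1.49) and Cnn1 (-1.03) were also lower without a call. Rgs5 (1.10), Abcc9 (0.76), Notch3 (0.18) and Cspg4 (0.042) went the other way, none of them called.

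Macrophage markers summed to 16.6 to 45.7 and 13.8 to 21.8 CPM with 1 of 9 tested, Lyz2, down-regulated. The neural crest, glial and neuronal list summed to 4.30 to 9.39 and 11.5 to 12.4 CPM, with 1 of 4 tested genes, Dbh, up-regulated, and its defining genes Sox10, Foxd3 and Stmn2 averaged 0.195 to 4.14 normalized counts. The most abundant of its genes was Prph, at 76.8 ± 49.6 and 177 ± 33.9 normalized counts (log2 fold change 1.21, edgeR adjusted p = 0.097), and without it the sums overlapped (1.93 to 3.33 and 2.59 to 4.89 CPM, ratio 1.49, exact permutation test, p = 0.3). With all genes of each list, the treatments did not overlap for any list but the macrophage list (exact permutation test, two-sided, p = 0.1, the smallest possible). The part of these cell types in the changes of the 9 genes was not tested.

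**Figure D5:**
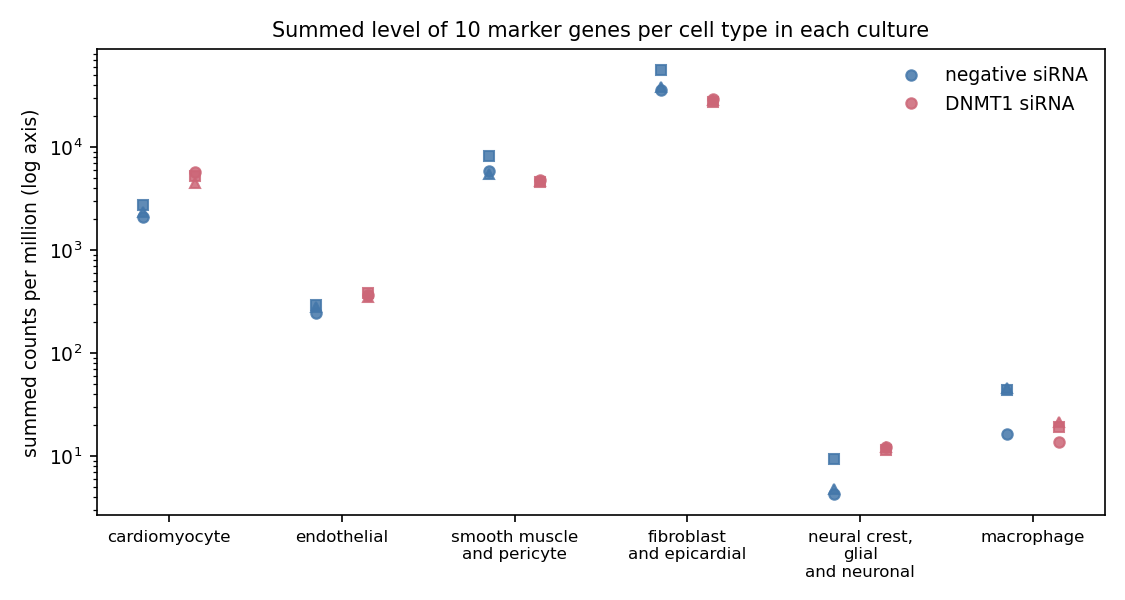
Summed CPM of 10 marker genes for each of 6 cell types in each culture (log axis, blue: negative siRNA, red: DNMT1 siRNA, symbols as for replicates 1 to 3). Cardiomyocyte markers lie at 4551 to 5762 with DNMT1 siRNA against 2117 to 2745, and fibroblast and epicardial markers at 27576 to 29441 against 36273 to 55876.

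The share of reads outside annotated genes moved with the treatment beside all of these values. Genes with at least 1 read numbered 23373 to 24204 in the negative siRNA libraries and 20761, 26011 and 25337 in DNMT1 siRNA replicates 1 to 3, which had fewer reads. The part of these reads in the changes of the 9 genes was not tested.

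For each tested member, the 2 tested genes with the most similar profile were taken by Pearson's r of log2 CPM over the 6 cultures, as a description without a test. With 3 cultures in each treatment, a shared difference between treatments alone can bring r close to 1. Taking the highest r over all tested genes on 6 cultures also favours values close to 1, with or without such a difference. They were Fhod3 (0.9985) and Frem2 (0.9984) for Chrm2, Nos1ap (0.9988) and Mpp2 (0.9986) for Edn1, Arhgef3 (0.9986) and Man1a (0.9980) for Adra1b, and Gm5421 and Plpp7 (0.9956 each) for Adora1. For Agtr1a, Kcnq1 (0.9965) is given. Among members that were not called, Notch3 (0.9979) and Enah (0.9968) were nearest to Adrb1, and Ndrg1 (0.9977) and Iglon5 (0.9959) to Ednrb. None of these matches was called, with log2 fold changes of 0.18, 0.050, 0.015 and -0.0070 in the order named. Notch3, like Adrb1, was highest in replicate 2 among the negative siRNA cultures (772, 2282 and 1248 normalized counts in replicates 1 to 3). The part of that culture in these matches was not tested. Ednra had the weakest matches, Acot10 (0.9736) and Kctd20 (0.9645).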

How the data were processed

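RNA-Seq was performed by the authors on 3 negative siRNA and 3 DNMT1 siRNA cultures (poly(A)-selected RNA, single reads, all libraries pooled in one run). Per the labels and methods, reads were cleaned after FastQC, mapped to mm10 (GRCm38) with TopHat2 and counted with HTSeq on an Ensembl annotation. Tool versions are not given in the sources used here. The deposited values are raw counts per Ensembl gene, 1 file per sample. Lines for reads given to no gene were left out of library sizes and tests. They held 53.0 to 54.2% of the counter's totals with negative siRNA and 64.1 to 71.0% with DNMT1 siRNA, mostly alignments that were not unique. Reads that fit several genes were 3.58 to 3.65% of uniquely mapped reads with negative siRNA and 6.02 to 6.35% with DNMT1 siRNA.

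Counts were analysed with edgeR 4.0.16 and limma 3.58.1 in R 4.3.3 (TMM normalization, filterByExpr with minimum count 10 and total 15, quasi-likelihood test, no block, Benjamini-Hochberg adjustment over 15470 genes), with DESeq2 1.42.0 as an alternative, and with Python 3.11.15, pandas 2.3.3, numpy 2.4.6 and scipy 1.17.1. Limits were FDR below 0.05 and fold change above 1.5. SE was obtained as log2 fold change over root F. RPKM used effective library sizes and exon lengths of GENCODE M21 (GRCm38), which is newer than the annotation of the counts and matched 42548 of 43629 genes. Log2 CPM had a prior count of 2. The script was tested on simulated data.

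The 9 members, the gene lists and the markers were chosen with earlier results of these data known. Named besides the members were, the called genes of each pathway list, and for each tested member the 2 genes of highest r. Genes named with values that were not called are added for their role. No pair of libraries was a copy (chi-square per degree of freedom at least 2.89). Pairs of DNMT1 siRNA libraries had 2.89 to 10.7 and pairs of negative siRNA libraries, which had more reads, 28.9 to 59.7. The edgeR fit took 1 spread per gene for both treatments. Alternatives were RLE scaling, other filters and limits, DESeq2, a replicate block and leaving out each culture. A few genes that these rules would name are not reported here.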

Additional observations from a re-analysis of the deposited data

Results flagged for a closer look

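Reads outside annotated genes, which no comparison of the 9 genes used, made up 29.3% ± 4.23 (SD, n = 3) of uniquely mapped reads with DNMT1 siRNA and 16.4% ± 1.58 with negative siRNA, and were noted because the signal was above that of the control cultures in all 3 DNMT1 siRNA cultures (exact permutation test, two-sided, p = 0.1, the smallest possible). Groups of 3 cultures were too small for a rule on outlying samples.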

How the results depend on the processing

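Chrm2, Adra1b and Edn1 passed both limits in all 13 alternatives, and Adora1 in 10 of 13. The number of members called higher stayed between 3 and 6 (edgeR, 4), and members called lower stayed at 0. Of single genes, 310 values kept their direction and side of the limits, 45 became weaker and 4 stronger. Turned directions concerned members that were not called. With 1 culture left out, the log2 fold change was -0.037 to 0.34 for Adrb1, -0.12 to 0.14 for Ednra and -0.43 to 0.74 for Ednrb, and with the replicate block it was 0.11 for Ednrb. Leaving out 1 culture gave 9 to 22 pathway genes called higher and 3 to 7 lower, and over all genes 255 to 823 higher (659 with all cultures) and 112 to 472 lower (345). Without DNMT1 siRNA replicate 1, 2 or 3, 316, 255 and 314 genes were called higher and 146, 112 and 145 lower, and 9 pathway genes higher each time, and the cause was not tested. With no filter, 8 pathway genes were called lower (5 with the filter), and 994 genes were called higher and 701 lower. Without the fold limit, the counts were 9 pathway genes lower, 1054 genes higher and 874 lower, and at an FDR below 0.01 they were 296 and 124. The replicate block, which cultures of equal number did not call for by their correlations (-0.021 to 0.027), left 12 pathway genes called higher and 4 lower, and the same 4 members. It moved Agtr1a to an adjusted p of 0.081 (0.052 without it). With marker sums, leaving out the most abundant gene of each list moved every log2 ratio by less than the spread between cultures, but the endothelial and neural crest sums then overlapped. Depth limits Adra1a, whose reads did not allow a test.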
